A study of Homo sapiens with 4 samples.

Results

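Complement factors and regulators were followed in ES2 cells, an established human ovarian cancer cell line, through 9 genes chosen by symbol: C3, C1R, C1S, CFB, CFI, CD46, CD55, CD59 and SERPING1. All 9 were found among the 23228 genes of the count tables, 8 had at least 1 count in a sample, and 6 passed the filter on low counts. One group of 2 samples received vehicle and the other group of 2 samples received Liq (liquiritigenin, a plant flavanone used in this study as an agonist of estrogen receptor β), each for 24 h. All 4 samples came from the same line, kept in phenol red-free medium with charcoal-treated serum, which removes most steroids, and no genetic change separated the groups. Total RNA was sequenced, and the reads on each gene were counted on the human genome build hg19 (GRCh37).

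Complement is a cascade of blood and tissue proteins that marks surfaces for clearance and can open pores in membranes. The classical pathway starts with the C1 complex, whose proteases C1r and C1s are held in check by the C1 inhibitor. The alternative pathway uses factor B, and both pathways meet at C3. Host cells protect themselves with factor I, which cuts C3b and C4b, with CD46, which helps factor I, with CD55, which takes convertases apart, and with CD59, which blocks the membrane pore. Most complement proteins of plasma are made in the liver, but epithelial and mesenchymal cells can make them locally, and tumour cells often carry the membrane regulators.

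The regulatory sequence before CFB and C1R is shown because these were the members that changed by at least 1.5-fold. The sequences come from RefSeq (GRCh38.p14, gene strand, 5′ to 3′), each covering the 250 bases before an annotated start, and capitals mark motif letters. For CFB the window is chr6:31945845-31946094 on the plus strand. For C1R there were 2 annotated starts on the minus strand, with windows at chr12:7092446-7092695 and chr12:7091894-7092143.
CFB: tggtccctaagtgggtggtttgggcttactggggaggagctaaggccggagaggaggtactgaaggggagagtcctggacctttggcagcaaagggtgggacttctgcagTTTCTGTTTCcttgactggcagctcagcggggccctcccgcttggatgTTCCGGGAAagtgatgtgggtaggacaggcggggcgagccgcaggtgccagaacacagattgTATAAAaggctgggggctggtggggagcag
C1R, first window: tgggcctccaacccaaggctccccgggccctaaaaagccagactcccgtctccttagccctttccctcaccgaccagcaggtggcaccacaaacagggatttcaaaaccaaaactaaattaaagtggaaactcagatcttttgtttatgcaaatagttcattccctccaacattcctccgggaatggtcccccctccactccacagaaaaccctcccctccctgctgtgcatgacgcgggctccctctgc
C1R, second window: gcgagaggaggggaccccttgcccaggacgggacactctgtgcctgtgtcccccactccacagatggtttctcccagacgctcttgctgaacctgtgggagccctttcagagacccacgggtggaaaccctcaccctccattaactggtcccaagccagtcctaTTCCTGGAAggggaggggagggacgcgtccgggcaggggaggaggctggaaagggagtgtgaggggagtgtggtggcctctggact

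The CFB window held 3 of the 7 motifs searched, none of which overlapped another. The letters TTTCNNTTTC of the interferon-stimulated response element lay 140 to 131 bases before the start and occur in 3.02% of the 35116 promoter windows of the table. The letters TTCNNNGAA, to which STAT factors can bind, lay 92 to 84 bases before the start and occur in 6.57% of windows. The TATA letters TATAAA lay 30 to 25 bases before the start and occur in 10.7% of windows. The second C1R window held TTCNNNGAA 86 to 78 bases before its start, and the first held none of the 7 motifs. Of the 9 genes, 6 had a promoter in the table, with 11 windows in all, and C3, C1S and SERPING1 had none. TTCNNNGAA was in 4 of these 11 windows, those of CFB, C1R and 2 overlapping windows of CD59. TGANTCA, the AP-1 motif, was in 1 window, that of a CD59 start, and occurs in 6.57% of all windows. The NF-κB letters GGGNNTTTCC, the estrogen response element GGTCANNNTGACC and the antioxidant response letters TGACNNNGC were in 0 of the 11 windows, and in 1.73%, 0.0399% and 10.9% of all windows. Both strands were searched, and a match describes letters only.

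Gene counts ranged from 34573053 to 48933893 per sample. Levels below are CPM, counts scaled to library size after TMM normalization (which adjusts library sizes), and 3 counts, taken as the smallest readable level, equalled 0.0598 to 0.0844 CPM per sample. The mean of each group is given with its SD over 2 samples. Nothing states that the 2 samples of a group were separate cultures, so a p-value measures the spread between these samples, which may be technical. Of the 12 markers fixed for epithelial and ovarian carcinoma cells, 6 passed the filter on low counts, with KRT7 at 8909 to 16922 counts and KRT18 at 5996 to 8387 counts. EPCAM and MUC16 had at most 3 counts in any sample and CDH1 had 0. At an adjusted p-value under 0.05 and any fold, 3 of these 6 tested markers fell and 1 rose, against 11.3% and 12.6% of all tested genes. The 12 markers summed to 573.6 to 617.5 CPM with vehicle and 638.5 to 693.0 CPM with Liq. KRT7 was the marker that rose (1.42-fold, adjusted p = 1.081e-05 from edgeR). KRT18 fell to 0.846-fold (adjusted p = 0.01322 from edgeR), a call lost with offsets that follow the expression level (edgeR, adjusted p = 0.07532). PAX8 and WT1, transcription factors of ovarian carcinomas, fell to 0.394-fold and 0.623-fold (adjusted p = 0.002137 and 0.002849 from edgeR). Without vehicle replicate 2, the log2 fold change of WT1 was -0.56, against -0.68 with all samples. The 9 fibroblast and mesenchymal markers summed to 8536 to 8869 CPM with vehicle and 7173 to 7927 CPM with Liq, mostly from vimentin (VIM). Of the 5 tested, 2 fell and 3 rose by the same rule, against the same shares of all tested genes. VIM fell to 0.826-fold (adjusted p = 0.000341 from edgeR), and FAP also fell. PDGFRB (1.96-fold, adjusted p = 0.002234 from edgeR), THY1 and COL1A1 rose, while COL1A2, COL3A1, LUM and DCN had at most 7 counts. COL1A1 lost its call with DESeq2 size factors (edgeR, adjusted p = 0.0519) and the DESeq2 Wald test (adjusted p = 0.1147). THY1 lost it with offsets that follow the expression level (edgeR, adjusted p = 0.1077) and the DESeq2 Wald test (adjusted p = 0.1337). Without Liq replicate 1, the log2 fold change of COL1A1 was 0.09. The part of these marker changes in the results below was not tested. The 8 leukocyte markers summed to 68.6 to 75.3 CPM with vehicle and 67.0 to 78.3 CPM with Liq, nearly all from CD68. LYZ, which passed the filter only through the vehicle samples, had 23 and 15 counts with vehicle and 8 and 9 with Liq, and PTPRC, which all leukocytes carry, had at most 1 count. The 8 hepatocyte markers summed to at most 0.418 CPM in any sample. ESR2, which encodes estrogen receptor β, had 4 and 7 counts with vehicle and 5 and 14 with Liq, and was not tested.

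Among the 9 genes, the membrane regulators made up nearly all of the transcript level in ES2 cells. Per kilobase of transcript, CD59, CD46 and CD55 together held 98.5% to 99.2% of the summed level of the 9 genes in each sample, and the components C3, C1R, C1S and CFB held 0.789% to 1.36%. CD59 alone held 59.9% to 61.3%. In vehicle, the length-corrected mean was 119.7 RPKM (CPM per kilobase of transcript) for CD59, 47.3 for CD46 and 27.6 for CD55. It was 0.814 for C1R, 0.497 for C1S, 0.360 for CFB, 0.0467 for CFI and 0.0195 for C3. The 3 membrane regulators did not overlap each other in either group. In Liq, C1S and CFB overlapped, and in vehicle the single samples of CFI (0.0123 and 0.0810) lay on either side of those of C3 (0.0186 and 0.0204). With the length of all annotated exons in place of that of 1 transcript, the vehicle means of CFB and C1S changed places (0.168 and 0.161), while CD59, CD46 and CD55 were still the top 3 at 85.8, 10.1 and 6.96. CD59 then stood further above CD46 and CD55, so its share and its ratios to them depend on the length used.

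**Figure D1:**
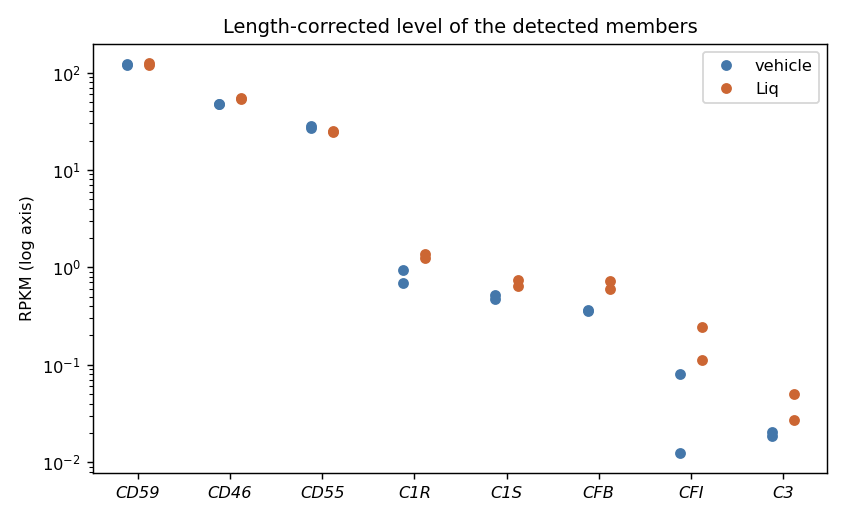
RPKM (CPM per kilobase of transcript, log axis) for the 8 members with at least 1 count, 1 point per sample, vehicle in blue and Liq in orange. CD59, CD46 and CD55 sit between 24.4 and 124, and every other member stays at or below 1.36.

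Of 13546 genes put to edgeR's quasi-likelihood test, 874 (6.45%) passed 2 limits, a change of 1.5-fold or more and a Benjamini-Hochberg adjusted p-value, taken over every tested gene, below 0.05. Of these, 581 were upregulated (4.29%) and 293 were downregulated (2.16%). Of the 6 tested complement members, CFB and C1R were upregulated past both limits in edgeR, and 0 were downregulated, also when the p-value was not adjusted. With the DESeq2 Wald test 0 members passed both limits, and CD46 was the 1 member with an adjusted p-value under 0.05. At any fold, 24% of tested genes had an adjusted p-value under 0.05 (12.6% upward), and CD46 joined CFB and C1R as the third of the 6 members, all upward. The samples of the groups did not overlap for 5 of the 6 tested members, 4 upward and 1 downward, against 61.7% of tested genes (31.5% upward and 30.2% downward). The median log2 fold change was 0.33 over the 6 members and 0.01 over all tested genes. Each of the 6 had at least 34 counts in every sample, so none passed the filter through 1 group alone.

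**Figure D2:**
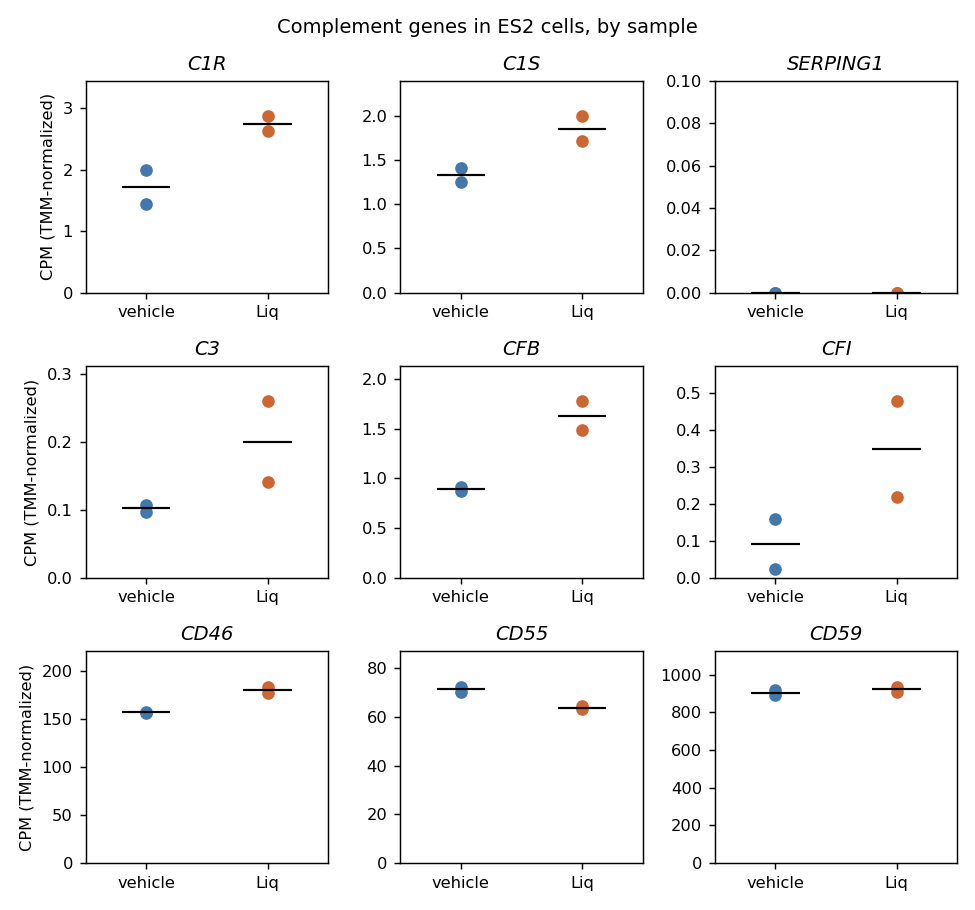
CPM of the 9 members in each sample, 1 panel per gene with its own axis from 0, points for samples and bars for group means. Both Liq points lie above both vehicle points for C1R, C1S, C3, CFB, CFI and CD46, below them for CD55, among them for CD59, and SERPING1 is at 0 in all 4 samples.

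CFB encodes factor B, the protease subunit of the alternative pathway convertase (chromosome 6 from 31913427 to 31919863). It had 36 and 34 counts with vehicle and 53 and 89 with Liq, or 0.876 and 0.908 CPM against 1.49 and 1.77 CPM. Both Liq samples lay above both vehicle samples. The mean rose from 0.892 ± 0.023 to 1.63 ± 0.20 CPM (SD, n = 2). The log2 estimate was 0.88 with an SE of 0.24 (edgeR, adjusted p = 0.009646), or 1.84-fold with a 95% interval of 1.30 to 2.61. Of tested genes at all levels, 3.96% had a larger change in either direction, and large changes were more frequent at low levels. CFB lost its call with offsets that follow the expression level (0.68, adjusted p = 0.05254 from edgeR), with the DESeq2 Wald test (0.87, adjusted p = 0.1153), and in edgeR without vehicle replicate 1 (0.85, adjusted p = 0.0915), vehicle replicate 2 (0.91, adjusted p = 0.05951) or Liq replicate 2 (0.74, adjusted p = 0.07634). The GENCODE annotation used here for coordinates also holds a readthrough transcript over the C2 and CFB genes. The annotation used for the counting is not given in the sources used here. If it held that transcript, reads that fit more than 1 gene were left out, so the counts of CFB are uncertain to that extent.

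C3 is the component on which the pathways meet and the most abundant complement protein of plasma (chromosome 19 from 6677715 to 6730573). ES2 cells had almost no C3 transcript, with 4 counts in each vehicle sample and 5 and 13 in the Liq samples, so it did not pass the filter. These counts equal 0.0973 and 0.107 CPM with vehicle and 0.141 and 0.259 CPM with Liq. The groups did not overlap, but the Liq samples differed from each other by more than Liq replicate 1 differed from vehicle. The pooled counts, 8 against 18, gave a ratio of 2.06 with an exact 95% interval of 0.853 to 5.48, which covers counting error only. Without the filter, edgeR estimated 1.01 with an SE of 0.78 on the log2 scale (adjusted p = 0.4302).

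C1R and C1S encode the 2 proteases of the C1 complex and lie near each other on chromosome 12. C1R (7187513 to 7245203) had 82 and 54 counts with vehicle and 102 and 132 with Liq, or 1.99 and 1.44 CPM against 2.87 and 2.63 CPM. Both Liq samples were higher, and the vehicle samples differed from each other by more than the Liq samples did. The mean rose from 1.72 ± 0.39 to 2.75 ± 0.17 CPM (SD, n = 2). The log2 estimate was 0.66 with an SE of 0.20 (edgeR, adjusted p = 0.0162), or 1.58-fold with a 95% interval of 1.19 to 2.10. Its call was lost with offsets along the expression level (0.48, adjusted p = 0.09031 from edgeR), with the DESeq2 Wald test (0.67, adjusted p = 0.1221) and in edgeR without vehicle replicate 2 (0.46, adjusted p = 0.2598). In GRCh37, 50000 of the 57691 bases in the C1R interval are written as unknown (86.7%), while the other 8 members have 0 unknown bases. The interval includes introns, and annotated C1R exons cover 4696 bases of it. The 86.7% is therefore not the share of the transcript that was missed. Reads from an unknown stretch could not be placed, so the level of C1R may be a minimum. The same stretch was missing for all 4 samples. The 3′ part of the neighbouring gene C1RL overlaps C1R on the same strand over 3021 bases.

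C1S (7096351 to 7178336) had 58 and 47 counts with vehicle and 71 and 86 with Liq, or 1.41 and 1.26 CPM against 2.00 and 1.71 CPM. The groups did not overlap. The mean was 1.33 ± 0.11 CPM with vehicle and 1.86 ± 0.20 CPM with Liq (SD, n = 2). The log2 estimate of 0.46 with an SE of 0.22 missed the threshold (edgeR, adjusted p = 0.1339). Its 95% interval ran from 1.004 to 1.89-fold, a range that also holds the estimate for C1R. LPCAT3 lies antisense over part of C1S, and the strand setting of the counting is not given in the sources used here, so reads of the 2 genes may not be fully told apart.

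SERPING1 encodes the C1 inhibitor, which inactivates C1r and C1s (chromosome 11 from 57364860 to 57386644). It had 0 counts in all 4 samples, which allows a level of up to 0.0598 to 0.0844 CPM per sample. At this depth, transcripts of C1R and C1S were therefore detected without those of their serpin inhibitor.

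CFI encodes factor I, the soluble protease that cuts C3b and C4b (chromosome 4 from 110652164 to 110723306). It had 1 and 6 counts with vehicle and 17 and 11 with Liq, or 0.0243 and 0.160 CPM against 0.478 and 0.219 CPM. The groups did not overlap, although vehicle replicate 2 and Liq replicate 2 were close. CFI did not pass the filter on low counts. The pooled counts, 7 against 28, gave a ratio of 3.66 with an exact 95% interval of 1.56 to 9.94 for counting error only. Without the filter, edgeR estimated 1.85 with an SE of 0.70 on the log2 scale (adjusted p = 0.04373), and CFI was then the third member past both limits. With 1 sample left out, CFI entered the test in some fits through its Liq counts alone, so a pass there is no support. The estimate was 3.61 without vehicle replicate 2 (adjusted p = 0.0275 from edgeR), 2.38 without Liq replicate 2 (adjusted p = 0.00738) and 1.03 without vehicle replicate 1, the sample with 1 count (adjusted p = 0.4649). In GENCODE, another gene on the same strand covers 70992 bases of the CFI interval. Such overlaps were not limited to members with low counts. Another gene on the same strand covers 19458 bases of the CD59 interval, and MIR29B2CHG lies antisense over 34864 bases of that of CD46. Whether the annotation used for the counting held these genes is not given.

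CD46, the membrane cofactor of factor I (chromosome 1 from 207925382 to 207968858), had 157 and 156 CPM with vehicle and 177 and 184 CPM with Liq. Both Liq samples were higher, and the difference was small. The mean rose from 156.9 ± 0.8 to 180.2 ± 4.7 CPM (SD, n = 2). The log2 estimate was 0.20 with an SE of 0.07 (edgeR, adjusted p = 0.03858), or 1.15-fold with a 95% interval of 1.04 to 1.27. CD46 therefore passed the test but not the 1.5-fold limit. In edgeR its call was lost when low counts were not filtered (adjusted p = 0.052) and without vehicle replicate 1 (adjusted p = 0.2871), vehicle replicate 2 (adjusted p = 0.3049) or Liq replicate 2 (adjusted p = 0.0859), with log2 fold changes of 0.17 to 0.20.

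CD55, or decay-accelerating factor, is held in the membrane by a GPI anchor (chromosome 1 from 207494864 to 207560149). It was the 1 tested member with a lower mean in Liq. It had 70.3 and 72.4 CPM with vehicle and 63.2 and 64.4 CPM with Liq, so the groups did not overlap. The mean was 71.4 ± 1.5 CPM with vehicle and 63.8 ± 0.8 CPM with Liq (SD, n = 2). The log2 estimate of -0.16 with an SE of 0.08 missed the threshold (edgeR, adjusted p = 0.1339), the unadjusted value of 0.04739 being under 0.05. The 95% interval was 0.801 to 0.999-fold. With the replicate number as a block it passed, at -0.16 (SE 0.05, adjusted p = 0.02487 from edgeR).

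CD59, also GPI-anchored, binds the late components and stops the pore from forming (chromosome 11 from 33724556 to 33758025). Its transcript was above 99.4% of the tested genes in mean CPM, with 917 and 894 CPM in vehicle and 910.2 and 937 CPM in Liq. The groups overlapped. The mean was 906 ± 16 CPM with vehicle and 924 ± 19 CPM with Liq (SD, n = 2). The log2 estimate was 0.03 with an SE of 0.06 (edgeR, adjusted p = 0.767). The 95% interval was 0.938 to 1.11-fold, which holds under TMM and the spread between these samples. With offsets that follow the expression level, the log2 estimate was 0.13 with an SE of 0.06 (edgeR, adjusted p = 0.1133). With the length of 1 transcript a gene, the ratio of CD59 to CD55 was 4.47 and 4.23 with vehicle and 4.93 and 4.99 with Liq. That of CD59 to CD46 was 2.56 and 2.51 with vehicle and 2.26 and 2.24 with Liq.

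Genes with low levels tended to be higher in Liq over the whole table, which touches CFB, C1R and C1S. Tested genes were put into 5 bins of equal size by level. In the lowest bin, which holds CFB, C1R and C1S, the median log2 fold change was 0.22, against -0.08 in the highest bin, which holds CD46 and CD59. The lowest bin, of 2710 genes, held 363 of the 581 upregulated genes and 120 of the 293 downregulated genes. Offsets fitted along the expression level lowered the log2 fold changes of CFB, C1R and C1S to 0.68, 0.48 and 0.26 and raised those of CD46 and CD59 to 0.27 and 0.13. CD46 still passed the test with them (adjusted p = 0.005979 from edgeR), and the number of members past both limits was 0. The split of all changed genes moved from 581 upregulated and 293 downregulated to 350 and 394.

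**Figure D3:**
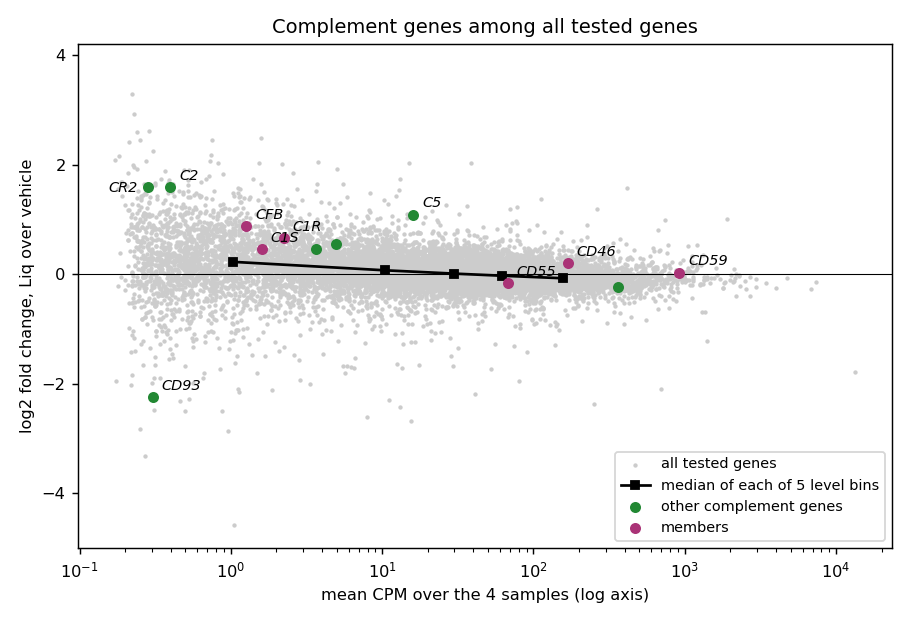
Log2 fold change of Liq over vehicle against mean CPM (log axis) for all 13546 tested genes in grey, the 6 tested members in purple and 7 of the other tested complement genes in green, with the medians of 5 bins of genes by level as a black line. The line falls from 0.22 to -0.08, CFB, C1R and C1S lie above it at low levels, and CD59 lies close to 0 at a high level.

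The rest of the pathway was read from a list of 55 other complement genes, of which 33 had at least 1 count and 14 were tested. Past both limits, 3 were upregulated and 1 was downregulated, against 4.29% and 2.16% of all tested genes. At any fold 5 were upregulated and 2 downregulated, against 12.6% and 11.3%. Of the 4 genes past both limits, C2, CR2 and CD93 passed the filter only through the group where they were higher, so these counts are a description. With at least 10 counts required in every sample the number past both limits was 1, C5. With the DESeq2 Wald test the number past both limits was 1, C5, with no adjusted p-value given for CR2 and CD93.

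C5, which is cleaved to start the membrane pore (chromosome 9 from 123695265 to 123837473), had the smallest p-value of all 20 tested complement genes. It had 413 and 393 counts with vehicle and 795 and 1071 with Liq. The groups were far apart relative to their spread, and the mean rose from 10.3 ± 0.3 to 21.8 ± 0.7 CPM (SD, n = 2), 2.13-fold with a 95% interval of 1.84 to 2.46 (adjusted p = 9.372e-09 from edgeR). Offsets along the expression level left it at a log2 fold change of 1.04 against 1.09. C2, the classical pathway relative of factor B, ends within the first 24 bases of the CFB gene and had 6 and 9 counts with vehicle and 28 and 21 with Liq. The log2 estimate was 1.58 with an SE of 0.47 (edgeR, adjusted p = 0.01449), for a gene that the filter kept through its Liq samples alone. C2 lost its call with DESeq2 (adjusted p = 0.1201) and in edgeR without vehicle replicate 1 (1.26, adjusted p = 0.1883) or Liq replicate 1 (1.12, adjusted p = 0.1649). CR2, a receptor for C3 fragments, had 5 and 6 counts with vehicle and 13 and 24 with Liq (log2 estimate 1.60 with an SE of 0.50, edgeR adjusted p = 0.02116), and the filter kept it through its Liq samples alone. Its call was lost in edgeR with offsets along the expression level (adjusted p = 0.06804) and without vehicle replicate 1, vehicle replicate 2 or Liq replicate 2 (adjusted p = 0.2279, 0.1087 and 0.1489). CD93, a surface lectin first described as a C1q receptor, had 27 and 13 counts with vehicle and 4 and 5 with Liq (log2 estimate -2.24 with an SE of 0.53, edgeR adjusted p = 0.002944), and the filter kept it through its vehicle samples alone. Without vehicle replicate 1 it missed the threshold (-1.70, edgeR adjusted p = 0.1895).

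Among smaller changes, C1RL, a C1r-like protease next to C1R, rose 1.46-fold (95% interval 1.16 to 1.83, adjusted p = 0.01335 from edgeR). C1QBP, a mitochondrial protein that can bind C1q, fell to 0.847-fold (0.771 to 0.930, adjusted p = 0.008854 from edgeR). CLU, or clusterin, had a log2 fold change of 0.47 and missed the threshold (edgeR, adjusted p = 0.05577). C1RL lost its call with offsets along the expression level, with DESeq2 and without vehicle replicate 2 or Liq replicate 1 (adjusted p = 0.06622 to 0.1684 over these edgeR and DESeq2 fits). C1QBP lost it with those offsets and without either vehicle replicate (edgeR, adjusted p = 0.08328 to 0.1192). C4A and C4B, near-identical copies, were at 0 in all samples, and reads that align to more than 1 place are not counted, so nothing can be read from these zeros.

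**Figure D4:**
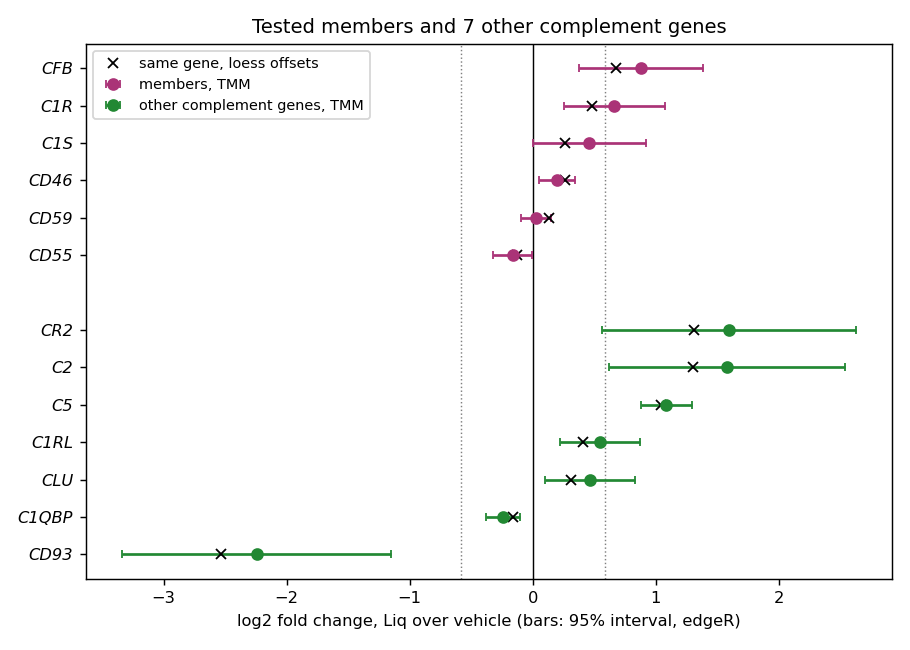
Log2 fold change of Liq over vehicle with its 95% interval for the 6 tested members (purple) and 7 of the other tested complement genes (green), with black crosses for the same genes under offsets along the expression level and dotted lines at 1.5-fold. CFB and C1R lie beyond the upper dotted line and their crosses lie closer to 0, while C5 stays near 1.09 under both.

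CD55 and CD59 need a GPI anchor, and all 29 listed genes of anchor synthesis and remodelling were tested. PIGZ, which adds a side mannose, was the 1 gene past both limits (1.83-fold, adjusted p = 1.883e-05 from edgeR), against 6.45% of all tested genes. At any fold, 7 of the 29 passed upward and 0 downward in edgeR, against 12.6% and 11.3% of all tested genes, with 1 lower at an unadjusted p-value under 0.05 and 5 upward and 0 downward in DESeq2. GPAA1, a subunit of the transamidase that attaches the anchor, rose 1.43-fold (adjusted p = 3.971e-05 from edgeR), from 99.0 ± 9.6 to 141.9 ± 13.5 CPM (SD, n = 2). PIGK, the catalytic subunit of the same enzyme, rose 1.27-fold (adjusted p = 0.002135 from edgeR), a call lost without vehicle replicate 1 (adjusted p = 0.08332). The median log2 fold change of the 29 was 0.14.

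Of 20 listed acute phase genes, 5 were tested. The liver makes some of the 20 in inflammation together with C3 and factor B. By edgeR, 0 of the 5 passed both limits, against 6.45% of all tested genes. At an unadjusted p-value under 0.05 the number past the 1.5-fold limit was also 0, as it was with DESeq2. At any fold, PTX3, a pentraxin that can bind C1q, fell to 0.727-fold (adjusted p = 2.699e-06 from edgeR) from 971 ± 8 to 706 ± 28 CPM (SD, n = 2), and SERPINA1 fell to 0.747-fold (adjusted p = 0.02479 from edgeR). SOCS3, an inhibitor of cytokine signalling, rose 1.28-fold (adjusted p = 0.002638 from edgeR). SERPINA1 lost its call with DESeq2 (adjusted p = 0.1183) and in edgeR without vehicle replicate 1 (adjusted p = 0.3969), and SOCS3 in edgeR without vehicle replicate 2 (adjusted p = 0.146). Among 16 genes, those of transcription factors known to act on complement genes and of the estrogen receptors, 13 were tested. RELB, an NF-κB subunit, fell to 0.656-fold (adjusted p = 8.537e-05 from edgeR). It was the 1 gene of these 13 past both limits, against 6.45% of all tested genes. With upper-quartile scaling, and without Liq replicate 1, the number past both limits was 0. NFKB1 fell to 0.770-fold (adjusted p = 0.001281 from edgeR) and STAT2 rose 1.21-fold (adjusted p = 0.02122 from edgeR). STAT2 lost its call in edgeR without either vehicle replicate or Liq replicate 1 (adjusted p = 0.05292 to 0.2444). STAT3, IRF1, CEBPB and RELA did not pass the threshold, with log2 fold changes of -0.05, -0.01, -0.04 and -0.11.

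For the members past both limits, the tested genes with the most similar pattern were sought by Euclidean distance. It was taken on log2 CPM after 0.1 was added to each CPM, centred on each gene's mean over the 4 samples. For C1R these were ADORA2A (distance 0.0330), SLC7A8 (0.0511) and RFESD (0.0797). For CFB they were PCBP3 (0.0265), CLGN (0.0410) and NUDT6 (0.0641). The added 0.1 shrinks differences at low levels, and the log2 fold change of PCBP3 was 1.18 against 0.88 for CFB. With 4 samples in 2 groups, such a likeness is a description.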

How the data were processed

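RNA-seq of 2 vehicle and 2 Liq samples of ES2 cells was used. The authors made TruSeq libraries (single-end), processed them with bcl2fastq 2.17.1.14 and TopHat2 2.0.8b on hg19, and deposited raw counts per gene from HTSeq, 1 table per sample, neither normalized nor pooled (per the labels). The tally of alignments that were not unique (35.6% to 36.2% of all tallied entries) and the other tally lines were left out of library sizes and tests. The tests ran in edgeR 4.0.16 (R 4.3.3) after filterByExpr (minimum count 10, minimum total 15) and TMM, with glmQLFit and glmQLFTest on 13546 genes and no replicate block. The SE was the log2 fold change divided by the square root of F, and a gene was called changed at 1.5-fold and adjusted p under 0.05. With 2 against 2, an exact permutation test of 1 gene cannot go below 0.3333. Replicates differed by more than sampling noise (chi-square per degree of freedom 6.56 and 11.6). Alternatives were DESeq2 1.42.0 and its size factors, upper-quartile factors, loess offsets (span 0.3), other filters, thresholds, a replicate block and leaving out each sample. In simulated counts for Liq against vehicle with 200 genes changed by 2-fold among 13457, edgeR recovered 197 and made 5 false calls. The simulation gave all genes 1 dispersion and changed only genes above a mean of 1 CPM. Recovery of changes smaller than 2-fold was not tested. Coordinates and lengths are from GENCODE for GRCh37, with 1 canonical transcript a gene (for C1R the longest basic coding transcript).

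The members and lists were chosen with earlier results of these data known, and the motifs after the values were seen. Named genes were the members and, in each other list, genes past both limits plus the 4 smallest p-values. Some genes of these lists are not reported here.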

Additional observations from a re-analysis of the deposited data

How the results depend on the processing

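Of 66 alternative values for the log2 fold changes of the 6 tested members, 53 kept their direction and side of the threshold, 12 lost significance, 1 gained it and 0 reversed. For the members, the number past both limits was 0 with loess offsets, with the DESeq2 Wald test and at a fold of at least 2, and 3 without the filter on low counts and with no fold limit, against 2, and 1 to 2 when each sample was left out. Without vehicle replicate 2 that member was CFI, and without Liq replicate 2 the members were C1R and CFI, where CFI entered through its Liq counts alone. For all genes it was 566 with DESeq2, 328 at 2-fold and 3245 with no fold limit, and 659 to 979 without each sample. For other complement genes it was 1 with at least 10 counts in every sample, 1 with DESeq2 and 7 with no fold limit, against 4, and 3 to 6 without each sample. For GPI anchor genes it was 0 at 2-fold and 7 with no fold limit, against 1, and 1 to 2 without each sample. For acute phase genes it was 3 with no fold limit. For transcription factors it was 0 with upper-quartile factors and at 2-fold and 3 with no fold limit, against 1, and 0 to 1 without each sample. The cause of these shifts was not tested, beyond the fewer genes and samples that some settings use. With the replicate number as a block, 898 of all genes, 2 members and 5 other complement genes passed both limits. The numbers mark no stated pairing (correlation of deviations 0.129 over genes). Fits that left out a sample assume that the lone sample of its group varies like the others. Counts limit C3, CFI and SERPING1 most, since 3 counts equal 0.0598 to 0.0844 CPM.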

Other observations

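Several complement genes stayed below the filter and are given as counts only, in the order vehicle replicates 1 and 2, then Liq replicates 1 and 2. C5AR1, the main receptor of the C5a fragment, had 0, 0, 3 and 5 counts. THBD, or thrombomodulin, had 3, 1, 4 and 8 counts, and its pooled ratio was 2.75 with an exact 95% interval of 0.833 to 11.7 for counting error. CFD, the protease that activates factor B, had 2, 0, 4 and 3 counts, with a pooled ratio of 3.21 (exact interval 0.610 to 31.6). C3AR1, the receptor of C3a, had 6, 5, 4 and 5 counts. Of the 55 other complement genes, 22 had 0 counts in all 4 samples.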
